A study of Mus musculus with 8 samples.

Results

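The Schlafen genes are a family of interferon-induced genes that sit side by side in the mouse genome, and the 7 described here are *Slfn1*, *Slfn2*, *Slfn3*, *Slfn4*, *Slfn5*, *Slfn8* and *Slfn9*. They were chosen by symbol, as the rows of the gene tables that carry these names, and each had 1 row in every library, 7 of 23284 genes in all. All 7 passed the filter on low values used for testing (a mean of at least 1 FPKM over the 8 libraries), so no member was left out. *Slfn4* passed it only through the naïve libraries, since its mean was under 1 FPKM in each effector subset. The study sequenced RNA of naïve CD4 T cells and of 3 effector subsets (Th1, Th2, Th17), with 2 libraries in each of the 4 groups, in a search for surface markers of the effector cells that precede memory cells. The strain was DO11.10 Tg in every group, a transgenic line with a T cell receptor for an ovalbumin peptide on its CD4 T cells. Per the study's methods the mice were at least 6 weeks old, which is the lower end of the age range given there. The number of animals behind each library is not given in the sources used here. The naïve cells were CD44low CD62Lhi CD4+ cells sorted from spleen and were not cultured. The effector cells were made from such cells in 6 days of culture, which per the study's methods contained the ovalbumin peptide and irradiated splenocytes without T cells. For Th1 cells the medium held IL-12 (100 U/ml), IL-2 (30 U/ml) and an antibody against IL-4 (1 µg/ml). For Th2 cells it held IL-4 (100 U/ml), IL-2 (30 U/ml) and an antibody against IFNγ (10 µg/ml). For Th17 cells it held 10 ng/ml each of IL-23, IL-1β and IL-6, and antibodies against IFNγ and IL-4 (10 µg/ml each). A difference between naïve and effector cells therefore also holds the culture itself, and these cannot be told apart.

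Schlafen proteins share a core domain that in several members cuts transfer RNA or ribosomal RNA, and the long members carry in addition a part that resembles a helicase. The family was found in T cell development and is named after the German word for sleeping, because *Slfn1*, its founding member, held back T cell growth when it was expressed from a transgene. *Slfn2* is required for the quiescence of T cells and monocytes, and mice with a mutated *Slfn2* lose T cells when these are activated. Type I interferon induces several members in many cell types. *Slfn1* and *Slfn2* encode short proteins, *Slfn3* and *Slfn4* intermediate ones, and *Slfn5*, *Slfn8* and *Slfn9* long ones.

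The 7 genes lie in 1 cluster on chromosome 11. On the mm10 build and from the left, these were *Slfn5* (chr11:82952102-82964850, plus strand), *Slfn9* (chr11:82980303-82991830, minus strand), *Slfn8* (chr11:83002158-83020810, minus strand), *Slfn2* (chr11:83065112-83070678, plus strand), *Slfn1* (chr11:83116845-83122659, plus strand), *Slfn4* (chr11:83175186-83190216, plus strand) and *Slfn3* (chr11:83191330-83215154, plus strand). The GENCODE annotation places an antisense gene over *Slfn5* (*Slfn5os*) and over *Slfn2* (*Gm20234*), and the microRNA *Mir7679* lies within *Slfn9*. The sample labels name a stranded library kit and the study's methods one that does not keep the strand, so reads of *Slfn5* and *Slfn2* and of their antisense partners may not have been told apart.

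Upstream of their start sites, the genes showed 2 sets of shared letters. The windows searched were those of RefSeq (GRCm38.p6, from 250 bases before to 50 bases after a start site), on both strands. The interferon-stimulated response element in its usual letters (GAAA, any 2 bases, GAAA) was present at *Slfn5*, *Slfn8* and *Slfn9* and in 3.44% of all 32851 windows. The letters TTCNNNGAA, the usual form of a STAT site, were in 0 of the 7 members' windows and in 8.30% of all windows. *Slfn1*, *Slfn2*, *Slfn3* and *Slfn4* shared the letters ACTTCCTGG, present in 0.843% of all windows. This last motif was chosen after the sequences were seen. The stretches below lie upstream of each start site and show these letters in capitals with 25 bases on each side, 5′ to 3′ on the strand of the gene.
Slfn1 (chr11:83116721-83116779, plus strand): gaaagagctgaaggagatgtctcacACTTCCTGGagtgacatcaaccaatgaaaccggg
Slfn2 (chr11:83065032-83065090, plus strand): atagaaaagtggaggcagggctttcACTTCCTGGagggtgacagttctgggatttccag
Slfn3 (chr11:83191263-83191321, plus strand): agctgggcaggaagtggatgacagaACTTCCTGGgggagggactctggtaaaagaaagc
Slfn4 (chr11:83175088-83175146, plus strand): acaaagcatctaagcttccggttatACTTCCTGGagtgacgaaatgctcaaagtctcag
Slfn5 (chr11:82951922-82951981, plus strand): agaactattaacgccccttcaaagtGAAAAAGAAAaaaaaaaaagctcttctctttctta
Slfn8 (chr11:83020824-83020883, minus strand): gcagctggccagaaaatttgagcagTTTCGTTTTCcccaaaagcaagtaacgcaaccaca
Slfn9 (chr11:82991841-82991900, minus strand): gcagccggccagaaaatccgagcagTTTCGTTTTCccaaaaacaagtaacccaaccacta
In *Slfn8* and *Slfn9* the match is on the strand opposite to the gene. The ACTTCCTGG letters began 74, 55, 42 and 73 bases before the start sites of *Slfn1*, *Slfn2*, *Slfn3* and *Slfn4*. The first base of the response element letters stood 155 bases before the start site of *Slfn5*, 48 and 136 before the 2 start sites that RefSeq gives for *Slfn8*, and 45 before that of *Slfn9*. The window of *Slfn9* and that of *Slfn8* with the match at 48 bases had 248 of 292 aligned bases identical (84.9%). A match is a description of the letters only.

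Several of the genes share sequence within their transcripts as well, which bears on how 50-base reads could be assigned. Of all 50-base words in the transcripts of a gene, 21.1% for *Slfn3* and 11.3% for *Slfn4* were found in another gene, mostly in each other and in *Gm11427*. The share was 14.6% for *Slfn8* and 11.9% for *Slfn9*, mostly shared between them and with the pseudogene *Slfn10-ps*, and 11.6% for *Slfn5*, mostly with its antisense partner. It was 4.27% for *Slfn2* and 0.606% for *Slfn1*. The values of *Slfn3*, *Slfn4*, *Slfn5*, *Slfn8* and *Slfn9* are thus less certain than those of *Slfn1* and *Slfn2*.

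Levels are given in FPKM, fragments scaled by library depth and transcript length, so that genes of different length can be set side by side. The confidence intervals deposited with the FPKM implied 14463466 to 21058286 fragments per library, with the naïve libraries the shallowest. A member was backed by 54 (*Slfn4*) to 10225 (*Slfn2*) implied fragments in a library. These numbers read the interval as counting error and cover no other spread. T cell markers summed to 1313.5 to 1763.8 FPKM in every library, and the cytokine and transcription factor markers of Th1, Th2 and Th17 cells were each highest in the subset so labelled. The CD8 T cell markers *Cd8a* and *Cd8b1* summed to 93.4 and 54.5 FPKM in the naïve libraries and to 8.94 to 13.0 FPKM in the effector libraries. Nearly all of this was *Cd8b1*, at 90.5 and 52.8 FPKM in the naïve libraries, where *Cd8a* was at only 2.94 and 1.77. The 9 granulocyte markers with a row summed to 8.70 to 9.52 FPKM in replicate 1 of the effector groups and to 0.538 to 0.952 in replicate 2. In replicate 1 of Th1, Th2 and Th17, *Mpo* was at 4.89, 2.46 and 3.02 FPKM and *Elane* at 2.59, 3.71 and 3.60. In replicate 2 of these groups *Mpo* was at most 0.106 and *Elane* at 0. *Prtn3* and *Ctsg* were likewise higher in replicate 1 of each effector group, while *Camp* and *S100a9* were at 0 in every effector library. Sums of B cell markers (2.50 to 12.9 FPKM), monocyte and macrophage markers (7.95 to 27.8 FPKM), dendritic cell markers (0.728 to 3.93 FPKM) and NK cell markers (0.0769 to 1.44 FPKM) were low. The part of these cells in the results below was not tested. The naïve libraries differed from each other in interferon-induced genes: all 33 genes of the list below that were tested were higher in naïve replicate 2 than in naïve replicate 1, against 50.8% of all genes tested, with a median difference of 0.63 on the log2 scale. Of the Schlafen genes, 6 of 7 were higher in naïve replicate 2, and results that turn on either library are given with and without it.

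The sum of the 7 genes was far higher in naïve cells than in any effector subset. It was 608 and 651 FPKM in the naïve libraries, and it was 134 and 142 for Th1, 92.9 and 105 for Th17 and 75.6 and 52.2 for Th2. The naïve mean was 4.55 times the Th1 mean, 9.85 times the Th2 mean and 6.37 times the Th17 mean. In bulk RNA, fewer expressing cells and less RNA per cell cannot be told apart. Most of this RNA came from the short members: *Slfn1* and *Slfn2* together made up 79.7% to 88.2% of the sum in every library.

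**Figure D1:**
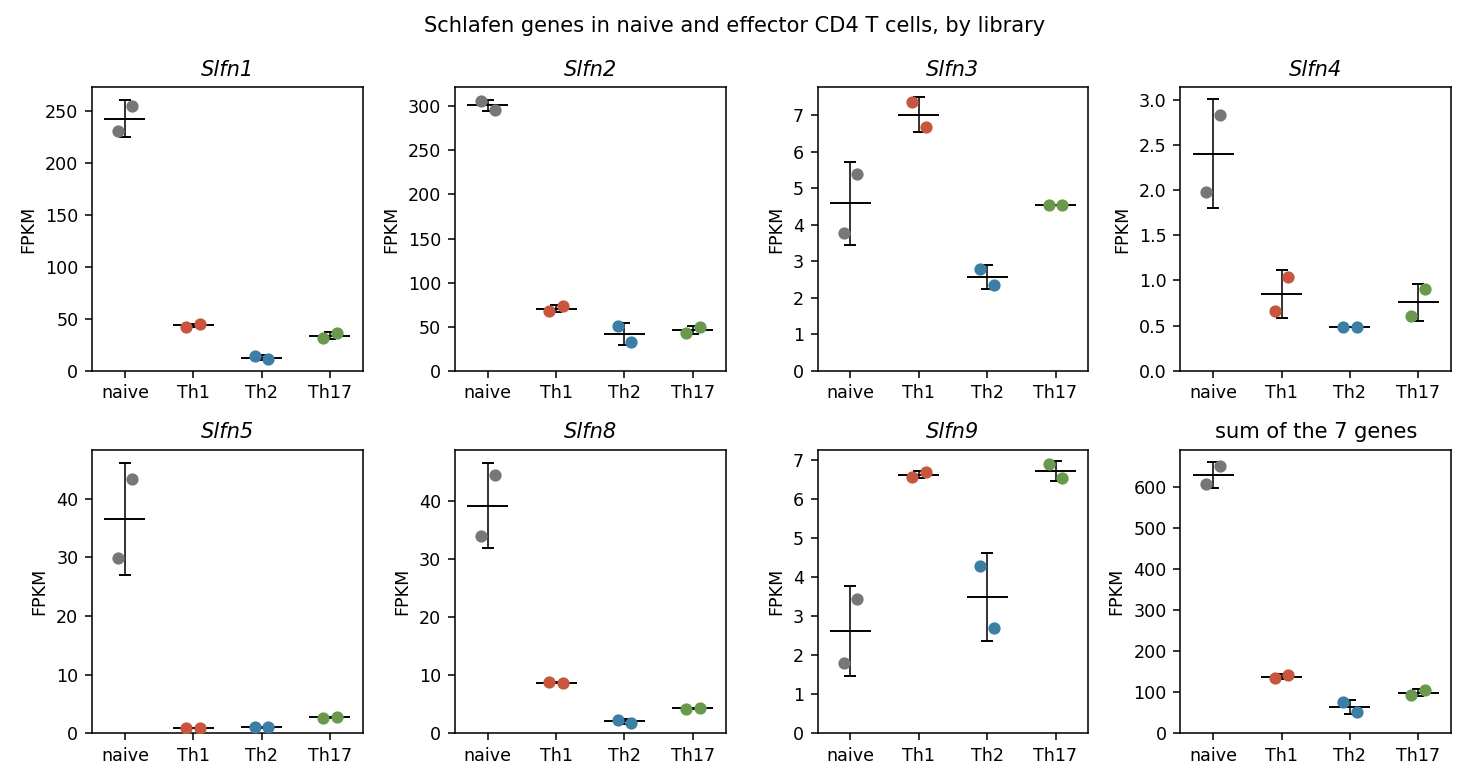
FPKM of each of the 7 Schlafen genes, and of their sum, in each library (points) of the naïve, Th1, Th2 and Th17 groups, with the group mean (line) and SD (bars, n = 2); each panel has its own axis, which starts at 0. *Slfn1*, *Slfn2*, *Slfn4*, *Slfn5* and *Slfn8* were highest in both naïve libraries, whereas *Slfn3* was highest in Th1 and *Slfn9* in Th1 and Th17.

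The question of the first set of comparisons is which genes differ between effector and naïve cells. The differences were tested with limma on log2(FPKM + 1) in 1 fit of all 8 libraries, two-sided, with Benjamini-Hochberg adjustment over the 11198 genes tested, and a gene was called at an adjusted p under 0.05. On this scale, changes of genes with low levels come out too small. The labels do not say whether the 2 libraries of a group came from separate animals or cultures. The p-values thus measure the spread between these libraries, which may be technical. This spread was estimated from all 4 groups together, with information from all genes tested. Leaving out a library of a group not compared can therefore move a p-value while the difference itself stays the same. In Th1, 5 of the 7 genes were lower and 2 higher than in naïve cells, where 33.5% of all genes tested were called lower and 33.8% higher. In Th2, 6 were lower and 0 higher, against 38.7% and 31.8% of all genes. In Th17, 5 were lower and 1 higher, against 29.8% and 37.5% of all genes. The median difference of the 7 genes was -2.03 for Th1, -2.86 for Th2 and -2.69 for Th17, and that of all genes tested was -0.01, -0.11 and 0.08. The 3 comparisons share the naïve libraries, so they are not independent of each other. *Slfn1*, *Slfn2*, *Slfn4*, *Slfn5* and *Slfn8* were lower than naïve in all 3 subsets, and these 15 calls held under every alternative in which the gene was tested. The direction of *Slfn4*, which is part of these counts, was fixed by the filter on low values, passed only through the naïve libraries.

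*Slfn2*, the gene needed for T cell quiescence, was the most abundant member in every library. Its FPKM was 306 and 296 in naïve cells, 67.5 and 73.4 in Th1, 42.8 and 49.2 in Th17 and 50.5 and 32.6 in Th2. Every effector library was below both naïve libraries by a wide margin, and the ranges of Th2 and Th17 overlapped. On the log2 scale, Th1 differed from naïve by -2.08, Th2 by -2.86 and Th17 by -2.69 (SE 0.20 each, adjusted p = 9.29e-05, 1.60e-05 and 2.32e-05).

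*Slfn1*, the founding member that held back T cell growth, followed the same direction with a larger fall in Th2. Its FPKM was 230.5 and 255 in naïve cells, 42.5 and 44.8 in Th1, 31.3 and 36.4 in Th17 and 14.2 and 11.2 in Th2. The 4 groups did not overlap. The naïve mean (243 ± 17.6, SD, n = 2) was 5.57 times the Th1 mean, 19.1 times the Th2 mean and 7.18 times the Th17 mean. The fitted differences from naïve were -2.45, -4.16 and -2.81 (SE 0.14 each, adjusted p = 7.62e-06, 5.89e-07 and 3.45e-06).

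*Slfn5*, a long member whose product is found in the nucleus, had the largest ratio to naïve of the 7 genes in each subset. Its FPKM was 29.8 and 43.3 in naïve cells, 0.906 and 0.911 in Th1, 2.59 and 2.81 in Th17 and 0.995 and 1.10 in Th2. The effector libraries were close to 1 FPKM in Th1 and Th2 and somewhat higher in Th17, and the naïve libraries were apart from each other in the same direction as the interferon-induced genes. The naïve mean was 40.2 times the Th1 mean, 34.8 times the Th2 mean and 13.5 times the Th17 mean. The fitted differences were -4.27, -4.17 and -3.32 (SE 0.17 each, adjusted p = 1.37e-06, 1.24e-06 and 3.75e-06). Without naïve replicate 2 they were -4.01, -3.91 and -3.06, and without naïve replicate 1 they were -4.54, -4.43 and -3.58.

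*Slfn8*, a long member with the helicase-like part, was also lower in every effector library. Its FPKM was 34.0 and 44.4 in naïve cells, 8.82 and 8.66 in Th1, 4.21 and 4.36 in Th17 and 2.34 and 1.77 in Th2. The 4 groups did not overlap. The naïve mean was 4.49, 19.0 and 9.15 times the Th1, Th2 and Th17 means, and the fitted differences were -2.03, -3.71 and -2.92 (SE 0.15 each, adjusted p = 2.50e-05, 1.21e-06 and 3.88e-06). The gene has 6 coding transcripts of different length, and the implied fragments behind 1 FPKM, at equal depth, differed 1.72-fold between libraries for *Slfn8*, against 1.10-fold for each of the other 6 genes. The cause of this spread was not tested. *Slfn8* was also expressed as implied fragments per 1000000 of the library, a setting added after the data were seen. So expressed, it was at 132 and 184 in naïve cells, 39.1 and 38.6 in Th1 and 20.1 and 23.8 in Th17. In Th2 it was at 13.6 and 5.97, and the order of groups was the same. These values are derived from the FPKM and its deposited interval, so they are not a separate count of reads.

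*Slfn4*, a member known chiefly from macrophages, was low in all groups. Its FPKM was 1.97 and 2.83 in naïve cells, 0.665 and 1.04 in Th1, 0.608 and 0.903 in Th17 and 0.487 and 0.480 in Th2. Both naïve libraries were above every effector library, while the ranges of Th1 and Th17 overlapped. The differences from naïve were -0.87, -1.19 and -0.95 (SE 0.17 each, adjusted p = 0.00355, 0.000724 and 0.00237). Their sign was fixed by the filter on low values, which *Slfn4* passed only through the naïve libraries. The 6 monocyte and macrophage markers summed to 13.1 and 12.6 FPKM in naïve cells, 7.95 and 8.75 in Th1, 17.0 and 17.2 in Th17 and 27.8 and 20.8 in Th2. They did not run together: the receptor genes *Csf1r* and *Fcgr1* were, like *Slfn4*, highest in naïve cells (means of 3.52 and 0.367 FPKM), *Lyz2* and *Emr1* were highest in Th2, and *Itgam* and *Cd14* in Th17. *Fcgr1* was at 0 in all Th2 and Th17 libraries. The part of such cells in the *Slfn4* levels was not tested.

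*Slfn9* moved against the other long members. Its FPKM was 1.81 and 3.44 in naïve cells, 6.55 and 6.69 in Th1, 6.90 and 6.53 in Th17 and 4.28 and 2.69 in Th2. The Th1 and Th17 libraries were above all naïve and Th2 libraries, and the ranges of naïve and Th2 overlapped. *Slfn9* was higher than naïve by 1.11 in Th1 and 1.13 in Th17 (SE 0.24, adjusted p = 0.00550 and 0.00507). In Th2 the difference was 0.32, with a 95% interval of -0.25 to 0.90 and an adjusted p of 0.269. The 2 naïve libraries decided that last value, since it was 0.65 with an adjusted p of 0.0393 without naïve replicate 2 and -0.01 with an adjusted p of 0.977 without naïve replicate 1. The rise in Th1 and Th17 was 0.78 and 0.80 without naïve replicate 1 and 1.44 and 1.46 without naïve replicate 2, and it stayed past the threshold either way. The neighbouring pseudogene *Slfn10-ps*, which shares sequence with *Slfn9* and *Slfn8*, was at 3.43 and 6.38 FPKM in naïve cells, 7.47 and 8.12 in Th1, 9.67 and 8.43 in Th17 and 4.79 and 3.07 in Th2. Whether the reads of these genes were fully told apart was not tested. The related gene *Slfnl1*, on another chromosome, was at or below 0.0845 FPKM in every library.

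*Slfn3*, an intermediate member, had small differences from naïve, of both signs. Its FPKM was 3.79 and 5.38 in naïve cells, 7.36 and 6.67 in Th1, 4.53 and 4.54 in Th17 and 2.80 and 2.34 in Th2. Th1 was above and Th2 below both naïve libraries, and the Th17 libraries lay between the naïve ones. The difference from naïve was 0.53 in Th1 (adjusted p = 0.0167), -0.63 in Th2 (adjusted p = 0.00762) and 0.00 in Th17 (95% interval -0.36 to 0.36, adjusted p = 0.993), with an SE of 0.15 each. The call in Th1 was lost without naïve replicate 1 (0.33, adjusted p = 0.0689), without Th1 replicate 1 (0.47, adjusted p = 0.0872) and in a fit of only these 2 groups (adjusted p = 0.0591). The call in Th2 was lost without Th2 replicate 2 (-0.54, adjusted p = 0.0513). The sign in Th17 was not settled, being -0.21 without naïve replicate 1, 0.21 without naïve replicate 2 and -0.27 after quantile normalization.

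**Figure D2:**
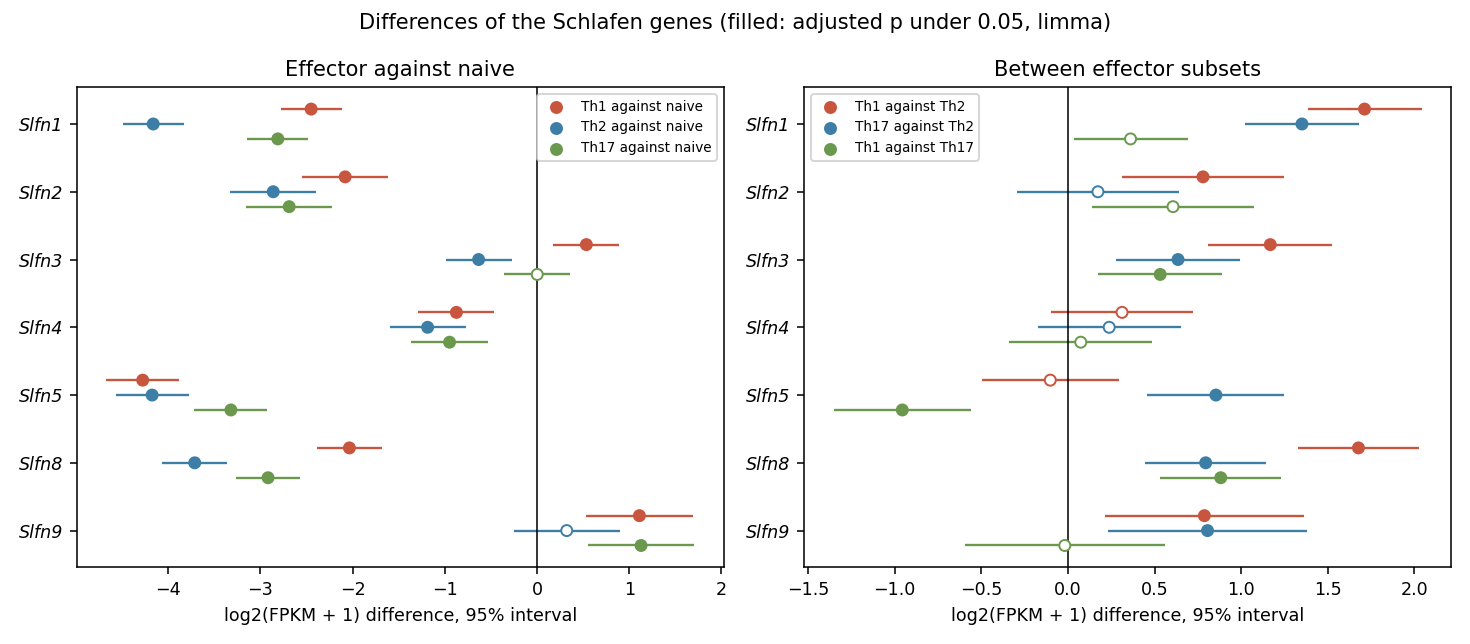
Differences of each Schlafen gene on the log2(FPKM + 1) scale (points) with their 95% intervals (lines), for each effector subset against naïve cells (left) and between effector subsets (right); filled points passed an adjusted p of 0.05 in limma. *Slfn5* reached -4.27 in Th1, and *Slfn9* was on the other side of 0 in Th1 and Th17; on the right, only the *Slfn5* point for Th1 against Th17 is filled and below 0.

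The second set of comparisons is between the effector subsets, where most Schlafen genes were lower in Th2 than in Th1 and Th17. In Th1 against Th2, 5 of the 7 genes were higher and 0 lower, where 27.4% of all genes tested were called higher and 16.9% lower. In Th17 against Th2, 5 were higher and 0 lower, against 31.7% and 12.0% of all genes. In Th1 against Th17, 2 were higher and 1 lower, against 9.17% and 16.0% of all genes. The median difference of the 7 genes was 0.79, 0.80 and 0.36 in these comparisons and that of all genes tested was 0.11, 0.18 and -0.08, against which the members' values are to be read. The comparisons share libraries and are not independent of each other. Leaving out 1 library at a time gave 3 to 5 genes called in Th1 against Th2, 2 to 6 in Th17 against Th2 and 1 to 3 in Th1 against Th17.

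*Slfn1* was higher in Th1 than in Th2 by 1.71 (adjusted p = 0.000127) and in Th17 than in Th2 by 1.35 (adjusted p = 0.000534). Th1 and Th17 were not called different in *Slfn1* (0.36, 95% interval 0.03 to 0.69, adjusted p = 0.108), although they were after median scaling (0.44, adjusted p = 0.0387). *Slfn8* separated all 3 subsets, being higher in Th1 than in Th2 by 1.68 (adjusted p = 0.000182), in Th17 than in Th2 by 0.80 (adjusted p = 0.00574) and in Th1 than in Th17 by 0.88 (adjusted p = 0.00547). These calls of *Slfn1* and *Slfn8* held whichever library was left out.

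*Slfn5* stood apart in Th17. It was higher in Th17 than in Th2 by 0.85 (adjusted p = 0.00700) and lower in Th1 than in Th17 by 0.96 (95% interval -1.35 to -0.56, adjusted p = 0.00670), and Th1 and Th2 were not called different (-0.10, 95% interval -0.50 to 0.29, adjusted p = 0.653). Without Th17 replicate 2, both calls were just lost, with adjusted p of 0.0501 and 0.0508 and differences of 0.81 and -0.91.

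*Slfn3* was higher in Th1 than in Th2 by 1.17 (adjusted p = 0.00107), a call that held whichever library was left out. It was also higher in Th17 than in Th2 by 0.64 (adjusted p = 0.0147) and in Th1 than in Th17 by 0.53 (adjusted p = 0.0421). The first of these 2 calls was lost without Th2 replicate 2 (adjusted p = 0.0903), Th17 replicate 1 (0.0634) or Th17 replicate 2 (0.0749). The call between Th1 and Th17 was lost without any single library of the 3 effector groups (adjusted p = 0.0618 to 0.190), with a pseudocount of 0.1 (0.0510) and without the filter on low values (0.0727).

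*Slfn9* was higher than in Th2 by 0.79 in Th1 (adjusted p = 0.0359) and by 0.81 in Th17 (adjusted p = 0.0340), and between Th1 and Th17 its difference was -0.02 (95% interval -0.59 to 0.56, adjusted p = 0.974). The 2 calls were close to the threshold. The first was lost without either Th1 library (adjusted p = 0.112 and 0.132), without Th2 replicate 2 (0.201), without either Th17 library (0.0643 and 0.0642), after median scaling (0.0550) and without the filter on low values (0.0728). The second was lost without either Th1 library (0.0580 and 0.0579), without Th2 replicate 2 (0.187), without either Th17 library (0.125 and 0.117), after median scaling (0.0749) and without the filter (0.0668).

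*Slfn2* was higher in Th1 than in Th2 by 0.78 (adjusted p = 0.0176), a call lost without Th1 replicate 1 (adjusted p = 0.0565) or Th1 replicate 2 (0.0916). The difference between Th17 and Th2 was 0.17 (95% interval -0.29 to 0.64, adjusted p = 0.508) and turned on the Th2 libraries, being 0.48 without Th2 replicate 1 (adjusted p = 0.0383) and -0.13 without Th2 replicate 2 (adjusted p = 0.483). Th1 was above Th17 by 0.61 (adjusted p = 0.0648), which passed the threshold in a fit of only these 2 groups (adjusted p = 0.0275), after median scaling (0.0321) and without Th2 replicate 1 (0.0141) or Th2 replicate 2 (0.0140). *Slfn4* was not called in any comparison between subsets, with differences of 0.31 between Th1 and Th2, 0.24 between Th17 and Th2 and 0.07 between Th1 and Th17 (adjusted p = 0.189, 0.303 and 0.815).

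By their group means, *Slfn1*, *Slfn2*, *Slfn4* and *Slfn8* had 1 order, with naïve highest, then Th1, Th17 and Th2. Within this order, Th1 and Th17 were not called different for *Slfn1*, *Slfn2* and *Slfn4*, nor Th17 and Th2 for *Slfn2* and *Slfn4*, whereas all neighbours differed for *Slfn8*. *Slfn5* ran from naïve through Th17 and Th2 to Th1, the last 2 not called different. *Slfn3* ran from Th1 through naïve and Th17 to Th2, with naïve and Th17 not called different. *Slfn9* ran from Th17 through Th1 and Th2 to naïve, and only Th1 and Th2 were neighbours that differed.

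The make-up of Schlafen mRNA differed between the groups as well, and a share within a library does not depend on how the library is scaled. A share also rises when other members fall, so a larger share need not mean more RNA. *Slfn3* made up 0.623% and 0.827% in naïve cells and 3.70% and 4.49% in Th2, although its FPKM was lower in Th2. *Slfn2* made up 45.5% to 51.6% of the summed FPKM in the naïve, Th1 and Th17 libraries and 66.8% and 62.5% in the Th2 libraries. *Slfn1* made up 37.9% and 39.2% in naïve cells, 31.6% and 31.5% in Th1, 33.7% and 34.7% in Th17 and 18.8% and 21.4% in Th2. The ratio of *Slfn2* to *Slfn1* was accordingly 3.55 and 2.92 in Th2 and 1.16 to 1.64 in the other 6 libraries. *Slfn9* made up 0.297% and 0.529% in naïve cells, 4.88% and 4.70% in Th1, 7.43% and 6.24% in Th17 and 5.66% and 5.16% in Th2. *Slfn5* took the opposite course, with 4.91% and 6.65% in naïve cells and 0.640% to 2.79% in the effector libraries.

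**Figure D3:**
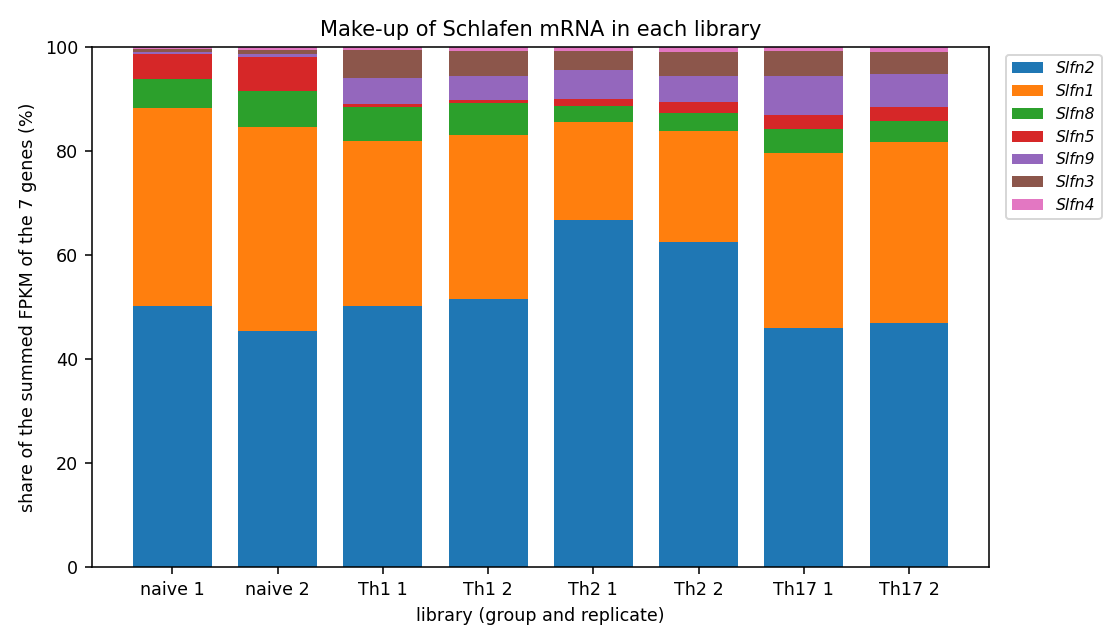
Share of each Schlafen gene in the summed FPKM of the 7 genes (stacked bars, in percent), for each of the 8 libraries. *Slfn2* and *Slfn1* fill 79.7% to 88.2% of each bar, with a larger part for *Slfn2* in the Th2 libraries, and *Slfn9* and *Slfn3* are wider in the effector libraries than in the naïve ones. A wider part of a bar need not mean a higher FPKM.

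Closely related pairs changed their balance. *Slfn9* and *Slfn8* share part of their upstream and transcript sequence. The ratio of *Slfn9* to *Slfn8* was 0.0531 and 0.0775 in naïve cells and 0.743 and 0.773 in Th1. It was 1.64 and 1.50 in Th17 and 1.83 and 1.52 in Th2. The naïve cells thus held far more *Slfn8* than *Slfn9*, while Th2 and Th17 held more *Slfn9*. *Slfn3* and *Slfn4*, which share part of their transcript sequence, had a ratio of *Slfn3* to *Slfn4* of 1.92 and 1.90 in naïve cells, 11.1 and 6.43 in Th1, 7.45 and 5.03 in Th17 and 5.75 and 4.89 in Th2. All effector libraries were above both naïve libraries in each of these ratios.

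The differences from naïve did not follow the order of the genes along the chromosome. *Slfn9*, which rose in Th1 and Th17, lies between *Slfn5* and *Slfn8*, the genes with the largest and with a large fall, and *Slfn3* lies at the other end beside *Slfn4*. Of 33 other genes with a row within 500 kb of the cluster, 19 were tested. In Th1, 7 of these were higher and 6 lower than naïve, in Th2 7 and 6, and in Th17 9 and 6, with medians of 0.12, -0.08 and 0.00. Of all genes tested, 33.8%, 31.8% and 37.5% were called higher and 33.5%, 38.7% and 29.8% lower, so the counts are not read as a result about the neighbours. In all 3 subsets, 5 neighbours were higher, namely the chemokine genes *Ccl3* and *Ccl4*, *Ap2b1*, *AI662270* and *Gm11428*, and others were lower, among them *Nle1*, *AA465934*, *Rffl* and *Taf15*. *Gm11428* differed by 1.21 in Th1, 3.10 in Th2 and 3.40 in Th17, and *Nle1*, a factor of ribosome assembly, by -1.31, -1.61 and -0.95.

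**Figure D4:**
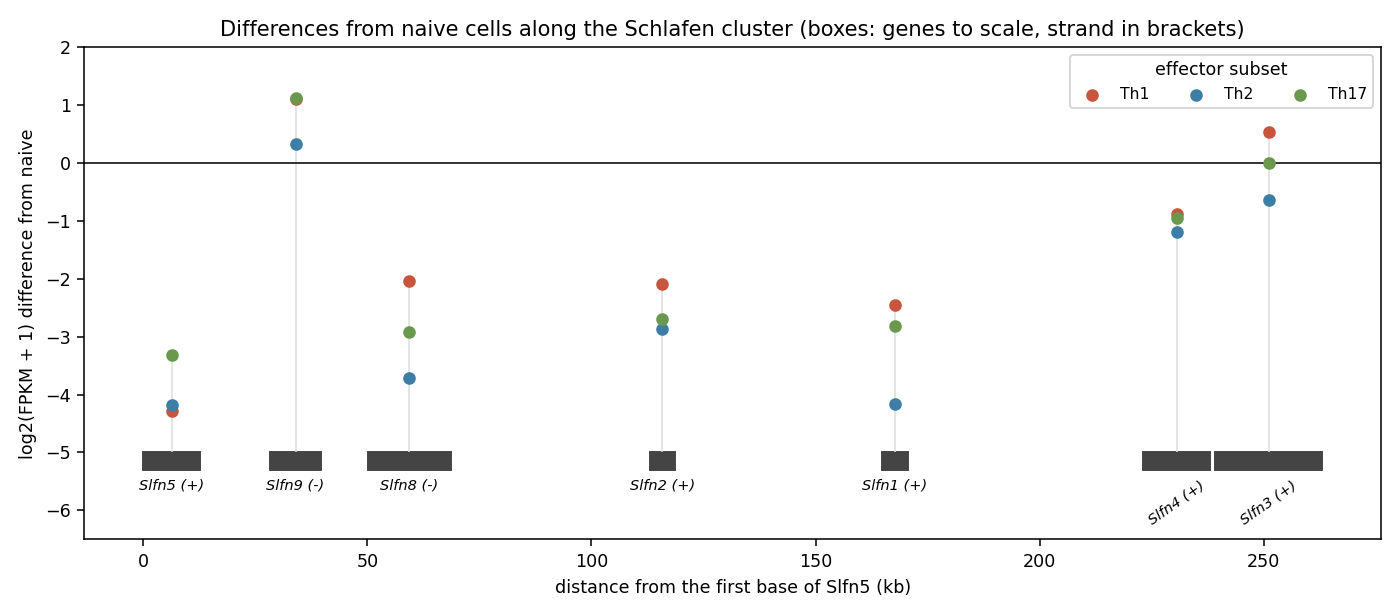
Map of the Schlafen cluster with each gene drawn to scale (boxes) along the distance in kb from the first base of *Slfn5*, and above each gene its difference from naïve cells on the log2(FPKM + 1) scale in Th1, Th2 and Th17 (points). *Slfn9* (1.11, 0.32 and 1.13) lies above 0 between *Slfn5* and *Slfn8*, which lie between -2.03 and -4.27.

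Since Schlafen genes are interferon-induced, 36 other genes induced by interferon were examined, of which 33 were tested. Like the quiescence and cell division lists below, this list was chosen with earlier results of these data known. The interferon-induced genes are described here and not used as a separate test. These genes were mostly lower in effector cells as well: 22 were lower and 5 higher in Th1, 28 lower and 3 higher in Th2, and 27 lower and 2 higher in Th17. Of all genes tested, 33.5%, 38.7% and 29.8% were called lower and 33.8%, 31.8% and 37.5% higher in these subsets. The median difference of all genes tested was -0.01, -0.11 and 0.08. That of the interferon-induced genes was -1.09 for Th1, -2.28 for Th2 and -1.72 for Th17. Without naïve replicate 2, which had the higher levels of these genes, 21, 27 and 24 genes were lower and 6, 3 and 5 higher. *Irf7*, a transcription factor that amplifies the interferon response, was at 52.5 and 89.5 FPKM in naïve cells, 6.29 and 7.83 in Th1, 3.89 and 3.42 in Th17 and 2.60 and 2.32 in Th2. Its differences from naïve were -3.12, -4.33 and -3.90 (adjusted p = 3.25e-05, 5.42e-06 and 9.41e-06). *Rtp4*, a receptor transport protein, was lower by more than 4 on the log2 scale in each subset (-4.47, -4.57 and -4.38). *Rtp4*, *Ifit1*, *Ifit3*, *Oas2*, *Oasl1*, *Mx2* and *Cmpk2* had means under 1 FPKM in each effector subset. They passed the filter on low values only through the naïve libraries. The filter thus fixed their direction, and the counts and medians above include them.

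Not all interferon-induced genes were lower. *Eif2ak2*, which encodes the RNA-activated kinase PKR, was higher than naïve in all 3 subsets (1.50, 1.02 and 1.60, adjusted p = 0.000221, 0.00138 and 0.000151). The exonuclease gene *Isg20* was higher in Th1 and Th2 (means of 50.3 and 47.9 FPKM against 19.2 in naïve cells, adjusted p = 0.000223 and 0.000256). *Oas3* was higher in Th1 and Th17 (1.23 and 0.83), and the RNA sensor gene *Dhx58* in Th2 (1.41). The list thus held members of both directions, as the Schlafen cluster did.

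**Figure D5:**
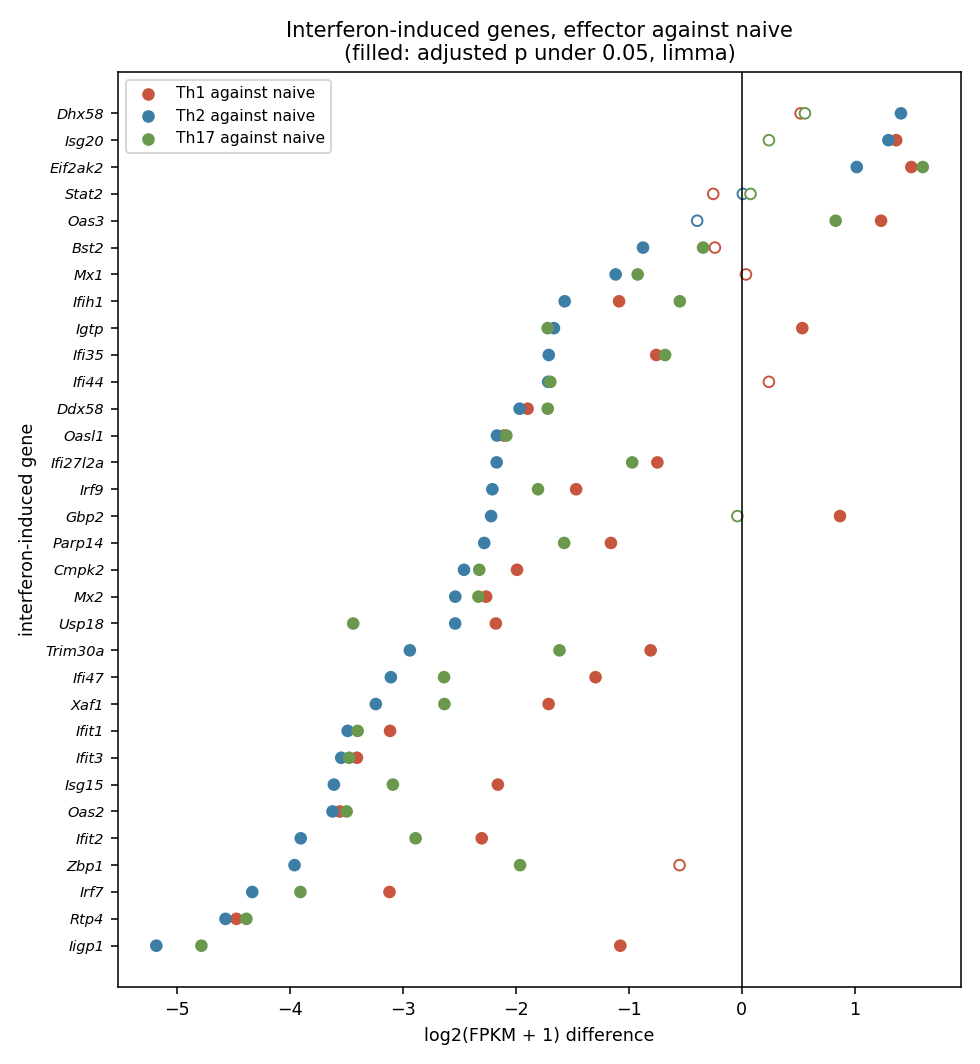
Difference from naïve cells on the log2(FPKM + 1) scale of 32 of the 33 interferon-induced genes tested, in Th1, Th2 and Th17 (points; filled where the adjusted p was under 0.05 in limma), ordered by the difference in Th2. Most points lie below 0, down to -5.18 for *Iigp1* in Th2, and *Eif2ak2* lies above 0 in all 3 subsets.

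Between the subsets, 27.4% of all genes tested were called higher and 16.9% lower in Th1 against Th2 (median 0.11). The shares were 31.7% and 12.0% in Th17 against Th2 (median 0.18) and 9.17% and 16.0% in Th1 against Th17 (median -0.08). The interferon-induced list was higher in Th1 than in Th2 in 20 genes and lower in 1 (median 0.95). In Th17 against Th2, 13 were higher and 3 lower (median 0.40), and in Th1 against Th17, 12 were higher and 1 lower (median 0.40). The count called in Th17 against Th2 fell from 16 to 9 without Th2 replicate 2 or Th17 replicate 2. The count called in Th1 against Th17 fell from 13 to 7 without Th1 replicate 1, to 6 without Th1 replicate 2 or Th17 replicate 1 and to 5 without Th17 replicate 2. The largest differences between Th1 and Th2 were those of *Iigp1* (4.11), *Zbp1* (3.41) and *Gbp2* (3.09). *Iigp1* and *Gbp2* encode GTPases that act against intracellular pathogens, and *Zbp1* a sensor of nucleic acids.

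Most of the genes known to keep naïve T cells quiescent were also lower in effector cells. In Th1, 16 of 18 were lower and 1 higher, in Th2 16 and 1, and in Th17 15 and 1 (medians -1.69, -2.13 and -1.45). Of all genes tested, 33.5%, 38.7% and 29.8% were called lower and 33.8%, 31.8% and 37.5% higher. *Klf2*, a transcription factor of T cell quiescence and trafficking, differed by -3.99, -4.36 and -4.71, and *Foxo1*, which maintains naïve cells, by -1.65, -0.70 and -1.98. *Tcf7*, which encodes the factor TCF1, fell furthest in Th1 and Th2 (-6.62 and -5.98) and was at -3.63 in Th17. The genes called higher were *Il7r* in Th1 (1.07) and *Satb1* in Th2 and Th17 (0.42 and 0.56). Between subsets, 6 of the 18 genes were higher and 4 lower in Th1 than in Th2. The counts were 7 and 5 in Th17 against Th2 and 4 and 4 in Th1 against Th17. Of all genes tested, 27.4% were called higher and 16.9% lower, then 31.7% and 12.0%, and 9.17% and 16.0%. The counts of these 18 genes between subsets are not read as a result about the list. That in Th1 against Th17 fell without Th17 replicate 2.

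The 16 genes of cell division were all tested and all higher than naïve in each subset, with medians of 5.02, 4.54 and 4.57. Of all genes tested, 33.8%, 31.8% and 37.5% were called higher. *Mki67*, a marker of cycling cells, was higher by 5.31 in Th1, 4.92 in Th2 and 4.79 in Th17. *Mki67*, *Ccnb1*, *Ccnb2*, *Ccna2*, *Cdk1*, *Aurkb*, *Bub1* and *Tyms* had means under 1 FPKM in naïve cells. They passed the filter on low values only through the effector libraries, so their being higher follows in part from the filter. Between subsets, 27.4% of all genes tested were called higher and 16.9% lower in Th1 against Th2. The shares were 31.7% and 12.0% in Th17 against Th2 and 9.17% and 16.0% in Th1 against Th17. Of the 16 genes, 8 were higher and 0 lower in Th1 than in Th2, and 6 and 0 in Th1 against Th17. In Th17 against Th2, 4 were higher and 3 lower, which is not read as a result about the list. The count in Th17 against Th2 fell from 7 to 3 without Th2 replicate 2, to 4 without Th17 replicate 1 and to 2 without Th17 replicate 2, and that in Th1 against Th17 fell from 6 to 2 without Th1 replicate 2 or Th17 replicate 1.

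The genes whose levels ran most like each Schlafen gene over the 8 libraries were found by Pearson's r on the log2(FPKM + 1) scale, as a description, since the libraries form 4 groups. For *Slfn1* these were *4930523C07Rik* (r = 0.999), *Spns1* and *Gm11346*, and for *Slfn2* they were *Sirt7* (r = 0.997), *Fbxl14* and *Tlr6*. For *Slfn8* they were the interferon-induced gene *Xaf1* (r = 0.997) and the T cell surface genes *Ly9* and *Cd96*. For *Slfn4* they were *Sbf1* (r = 0.998), *Arfgef2* and *Ccdc88c*, and for *Slfn5* *Pogz*, *Cnksr3* (r = 0.999 each) and *Usp24*. The patterns of *Slfn3* and *Slfn9* had less close neighbours. *Slfn3* ran most like *2310010J17Rik* (r = 0.976), *Myd88* (r = 0.967), an adaptor of Toll-like receptor signaling, and the interferon-induced GTPase gene *Gbp3* (r = 0.963). *Slfn9* ran most like *Ube2l6* (r = 0.975), the conjugating enzyme for ISG15, and *Ptpn7* and *Lzic*. Among the members, *Slfn1*, *Slfn2*, *Slfn4*, *Slfn5* and *Slfn8* had r of 0.870 to 0.987 with each other, while *Slfn9* had r of -0.596 to -0.352 with these and of 0.592 with *Slfn3*. The lists of nearest genes depended on the pseudocount: with 0.1 in place of 1, *Gm11346* was at rank 59 for *Slfn1*, *Ccdc88c* at rank 33 and *Arfgef2* at rank 7 for *Slfn4*, *Cnksr3* at rank 19 for *Slfn5* and *Xaf1* at rank 9 for *Slfn8*, while *Cd96* was then at rank 1 for *Slfn8*.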

How the data were processed

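RNA of 8 libraries (4 groups of 2, assigned from the sample labels) was analysed. The authors aligned reads to mm10 with Bowtie 0.12.8 and TopHat 1.3.2 and deposited FPKM per gene from Cufflinks 2.0.2, with a confidence interval and a status. The gene annotation is not given in the sources used here. Rows sharing a symbol were summed. File starts count from 0, and 99.82% of 20479 symbols overlapped the RefSeq gene of that name. log2(FPKM + 1) was fitted with limma 3.58.1 (R 4.3.3, trend) for 11198 genes (mean FPKM of 1 or more), and the model was tested on simulated data. Tables, sequence searches and figures used Python 3.11.15, pandas 2.3.3, numpy 2.4.6, Biopython 1.88 and matplotlib 3.10.9. Promoter windows came from RefSeq (GRCm38.p6) and transcripts from GENCODE. Depth was 14463466 to 21058286 implied fragments. Alternatives were another pseudocount, filter, scaling, fit or trend, the replicate block and each library left out. The members and gene lists were chosen with earlier results of these data known. Named genes were the members, their relatives, the 3 most similar genes, the 3 most changed listed genes per direction, *Irf7*, *Klf2*, *Foxo1*, *Mki67*, markers and neighbours of the cluster. Protein sequences were not analysed here, and 1 gene that the rule names is not reported here.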

Additional observations from a re-analysis of the deposited data

Results flagged for a closer look

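The difference between effector subsets is also the difference between their responses against the same naïve libraries, and it was tested itself with limma for each of the 7 genes and 3 pairs of subsets. Of 21 such differences, 13 in 6 genes passed an adjusted p of 0.05. Of all genes tested, 27.4% were called higher and 16.9% lower in Th1 against Th2, 31.7% and 12.0% in Th17 against Th2, and 9.17% and 16.0% in Th1 against Th17. In Th1 against Th2 the Schlafen genes that passed were *Slfn1* (1.71), *Slfn8* (1.68), *Slfn3* (1.17), *Slfn9* (0.79) and *Slfn2* (0.78). In Th17 against Th2 they were *Slfn1* (1.35), *Slfn5* (0.85), *Slfn9* (0.81), *Slfn8* (0.80) and *Slfn3* (0.64). In Th1 against Th17 they were *Slfn5* (-0.96), *Slfn8* (0.88) and *Slfn3* (0.53). *Slfn5* was the only one of these genes that was lower in Th1 than in another subset by this test. With 2 libraries a group, no library was examined as an outlier.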

How the results depend on the processing

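Over the 9 alternatives that kept all libraries, 345 of 360 differences of the 7 genes kept their direction and side of the threshold, 7 lost and 3 gained a call and 5 changed sign; with 1 library left out, these were 300 of 336, with 26, 4 and 6. No difference that changed sign had been called. After median scaling, *Slfn2* in Th17 against Th2 was -0.0292 and *Slfn9* in Th1 against Th17 was 0.0545. After quantile normalization, *Slfn3* in Th17 against naïve was -0.27, *Slfn4* in Th17 against Th2 -0.0442 and *Slfn9* in Th1 against Th17 0.0988. With 1 library left out, *Slfn9* in Th2 against naïve ranged from -0.0089 (without naïve replicate 1) to 0.65, *Slfn3* in Th17 against naïve from -0.21 (without naïve replicate 1) to 0.21 and *Slfn2* in Th17 against Th2 from -0.13 (without Th2 replicate 2) to 0.48. In Th1 against Th17, *Slfn4* ranged from -0.0712 (without Th1 replicate 2) to 0.22, with -0.0472 without Th17 replicate 1, and *Slfn9* from -0.0524 to 0.0162 (without Th17 replicate 1). The cause of these changes was not tested. With a mean of at least 5 FPKM, *Slfn3*, *Slfn4* and *Slfn9* were not tested, and 4 members were called in Th1 against naïve and 3 in Th1 against Th2 and in Th17 against Th2; 19 interferon-induced genes were then called in Th17 against naïve. After median scaling, 5 members and 10 genes of cell division were called in Th1 against Th17. A fit of only the 2 groups called 4 genes of cell division in Th17 against Th2.

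When 1 library was left out, the members called numbered 6 to 7 in Th1, 5 to 7 in Th2 and 6 in Th17 against naïve, 3 to 5 in Th1 against Th2, 2 to 6 in Th17 against Th2 and 1 to 3 in Th1 against Th17. In the same order of comparisons, the interferon-induced genes numbered 24 to 28, 30 to 32, 25 to 29, 18 to 23, 9 to 18 and 5 to 18. The quiescence genes numbered 16 to 17, 16 to 17, 15 to 17, 9 to 10, 9 to 13 and 5 to 8. The genes of cell division numbered 16 in each comparison with naïve and then 7 to 8, 2 to 8 and 2 to 7.

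Same-numbered libraries are not said to share a culture or animal; the correlation of their deviations was 0.138 to 0.294 over the 6 pairs of groups. In the fit with the replicate block, the members called were 7, 6, 6, 5, 5 and 3, as without it, and 10 genes of cell division were called in Th1 against Th17, against 6 without it. Depth limits *Slfn4* most, with 54 implied fragments in its lowest library.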
